A study of Mus musculus with 8 samples.

Results

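The genes of mitochondrial ribosomal proteins are described here, chosen as the nuclear genes whose symbol is Mrpl or Mrps followed by a number and at most 1 letter. There were 78 of them among the 55487 genes of the count tables, 49 Mrpl genes, named for the large subunit, and 29 Mrps genes, named for the small subunit. The mitochondrial ribosome, or mitoribosome, is the ribosome inside mitochondria. It translates the few mRNAs of mitochondrial DNA, which encode core subunits of the respiratory chain and of the ATP synthase. Its rRNAs are transcribed from mitochondrial DNA, whereas its proteins are encoded in the nucleus, made in the cytosol and imported. Liver is rich in mitochondria, and hepatocytes rely on them for fatty acid oxidation, ketone body formation and the urea cycle.

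Liver RNA was sequenced from 8 adult male mice, 4 Control and 4 Mc1r LKO, to ask how loss of the melanocortin 1 receptor in hepatocytes affects lipid metabolism. Control mice carried a floxed Mc1r allele on both chromosomes (Mc1r fl/fl) and no Cre. Mc1r LKO mice carried the same floxed alleles and the Alb-Cre transgene, in which the albumin promoter drives Cre recombinase in hepatocytes, so other liver cells keep an intact receptor gene and Cre is present in this genotype alone. All mice started a cholesterol-rich Western diet at 8 weeks of age and stayed on it for 12 weeks.

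The count tables held 10773151 to 24763375 counts per mouse, so that 3 counts correspond to 0.121 to 0.278 per 1000000 counts before any scaling. Levels below are in CPM, which are counts per 1000000, scaled by TMM normalisation. The targeted gene, Mc1r, had 0 counts in all 8 mice, so its counts do not separate the genotypes. Hepatocyte markers, the defining genes of the labelled tissue, summed to 73813 to 90341 CPM in Control and 80069 to 104920 CPM in Mc1r LKO mice. Of the 78 genes, 77 had enough counts to be tested, with 74 to 3228 counts per mouse. In the text, per-mouse values are in the order of Control mice 154, 159, 181 and 193 and Mc1r LKO mice 141, 156, 157 and 182. Fold changes are Mc1r LKO against Control from edgeR's quasi-likelihood test, fitted to all 13400 genes that passed the filter on low counts. Genotypes are called separate when every mouse of one genotype lies above every mouse of the other.

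Most mitoribosomal protein genes are housekeeping genes whose promoters lack a TATA box. The 250 bases before the RefSeq start are shown for 4 of the genes that recur below, namely Mrpl14 and Mrpl58, with the smallest p-values, Mrps18a, a reference gene of the study's qPCR, and Mrps36, the lowest fold change. Build is GRCm38.p6, and capitals mark the letters CCGGAAG, the core recognised by ETS factors such as GABPA.
Mrpl14: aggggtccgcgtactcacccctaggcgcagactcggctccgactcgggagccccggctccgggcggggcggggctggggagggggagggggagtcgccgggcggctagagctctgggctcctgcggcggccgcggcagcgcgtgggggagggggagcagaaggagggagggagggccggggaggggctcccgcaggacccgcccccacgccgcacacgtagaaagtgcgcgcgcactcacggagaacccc
Mrpl58: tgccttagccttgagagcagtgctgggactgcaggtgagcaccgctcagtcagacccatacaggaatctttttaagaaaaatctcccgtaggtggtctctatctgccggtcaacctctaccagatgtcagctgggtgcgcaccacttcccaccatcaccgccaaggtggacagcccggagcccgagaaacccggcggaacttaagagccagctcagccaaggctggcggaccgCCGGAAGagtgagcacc
Mrps18a: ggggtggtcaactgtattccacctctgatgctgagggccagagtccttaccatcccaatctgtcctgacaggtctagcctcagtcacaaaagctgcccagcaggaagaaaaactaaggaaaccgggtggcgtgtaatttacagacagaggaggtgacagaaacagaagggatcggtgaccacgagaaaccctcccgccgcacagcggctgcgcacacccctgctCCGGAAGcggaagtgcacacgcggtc
Mrps36: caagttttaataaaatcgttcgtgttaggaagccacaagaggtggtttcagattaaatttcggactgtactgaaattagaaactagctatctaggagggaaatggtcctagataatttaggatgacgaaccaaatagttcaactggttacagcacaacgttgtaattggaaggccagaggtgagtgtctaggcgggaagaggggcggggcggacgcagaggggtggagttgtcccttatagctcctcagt
The windows lie at chr17:45686099-45686348 (plus strand, Mrpl14), chr11:115403502-115403751 (plus strand, Mrpl58), chr17:46110754-46111003 (plus strand, Mrps18a) and chr13:100744660-100744909 (minus strand, Mrps36). The ETS letters began 17 bases before the start in Mrpl58 and 26 bases before it in Mrps18a, both on the strand of the gene.

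A RefSeq window of 300 bases, 250 before to 50 after the start, was found for 69 of the 78 genes, and 4 motifs were searched in it on both strands. A gene with several windows was counted once, if any of them held the letters. The ETS letters were in 26 of 69 genes (37.7%), against 19.6% of tested genes and 9.93% of all genes, each with a window. AAGATGG, the core for YY1, was in 13 of 69 (18.8%), against 8.36% of tested genes and 7.28% of all genes with a window. GCGCATGC, the core for nuclear respiratory factor 1 (NRF-1), was in 8 of 69 (11.6%), against 5.78% and 3.05%. TATAAA was in 5 of 69 (7.25%), against 9.46% of tested genes and 15.7% of all genes with a window. The search is by letters alone, and no binding was measured here. The 25 tested members with the ETS letters had a median log2 fold change of 0.17, and the 43 without them 0.15. Medians with and without the letters were 0.183 and 0.164 for NRF-1, 0.175 and 0.159 for YY1 and 0.170 and 0.165 for TATAAA. These differences were not tested.

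Levels differed far more between genes than between genotypes. Per kilobase of exon, the mean level over the 8 mice spanned from 1.21 CPM per kilobase for Mrpl23 to 79.3 for Mrpl12, a 65.5-fold range among tested genes. Mrpl12, the protein of the flexible stalk that contacts translation factors, was followed by Mrpl14 at 48.1, Mrpl34 at 46.7, Mrpl54 at 38.9 and Mrps21 at 38.4 CPM per kilobase. At the low end, above Mrpl23, stood Mrps25 at 1.93, Mrpl19 at 2.30, Mrpl47 at 2.44 and Mrpl3 at 2.69 CPM per kilobase. The median was 13.4 CPM per kilobase for Mrpl and 8.42 for Mrps genes, against 2.99 for all tested genes. Exonic length here sums every annotated exon of a gene, so a gene with long rare transcripts reads low on this scale. A pseudogene named after Mrpl23, Mrpl23-ps1, had 3 to 27 counts per mouse. Reads that match both were not counted, so the level of Mrpl23 may be understated.

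Mrpl53 was the member not tested. It had at most 0.186 CPM in any mouse, and 88.0% of its exonic bases are shared with Gm42688 on the same strand, where the counting assigns a read to neither gene. Its level is therefore unknown from these tables. Another 7 members (Mrpl3, Mrpl33, Mrpl51, Mrps6, Mrps18c, Mrps24 and Mrps34) share exonic bases with a gene on their strand, from 2.15% of Mrpl51 to 37.0% of Mrps34, and their levels may be understated. Members without any such overlap, 70 in number, had a median log2 fold change of 0.16, and 67 of them were higher in Mc1r LKO livers.

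Mitoribosomal protein mRNAs were higher in Mc1r LKO than in Control livers for 73 of the 77 tested genes, by a small amount. The median log2 fold change was 0.17, with a range from -0.39 for Mrps36 to 0.40 for Mrpl58, whereas over all 13400 tested genes the median was -0.01 and 47.9% were higher. At an unadjusted p below 0.05, 22 members were higher and 1 was lower, 29.9% of those tested, against 6.72% of all genes (3.86% higher and 2.87% lower). In alternative fits this share was 11.7% with scaling by library size alone (5.96% of all genes) and 36.4% without Control mouse 159 (6.73%). It was 15.6% in edgeR's likelihood ratio test (5.52%) and 13.0% without Control mouse 193 (4.96%). A pair of limits was also used, an unadjusted p below 0.05 with a log2 fold change of 0.25 or more in size. The study's methods set cut-offs of these sizes without saying whether p is adjusted, and its results section calls p adjusted. Both limits, with p unadjusted, were passed by 11 higher members and 1 lower one, against 5.31% of all genes (2.64% higher and 2.66% lower). The 12 members past both limits became 7 without Control mouse 193 (4.46% of all genes in that fit), 20 without Control mouse 159 (5.65%) and 6 when libraries were scaled by their size alone (4.99%). No member passed a Benjamini-Hochberg adjusted p of 0.05 in edgeR's quasi-likelihood test, where the lowest adjusted p was 0.73 and 0.0% of all genes were called. DESeq2 gave an adjusted p to 75 members and 8458 genes and called 1 member, Mrpl14, and 17 genes in all (0.201%). The likelihood ratio test of edgeR called 0 members and 8 genes (0.0597%), and limma-voom called 0 of both.

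**Figure D1:**
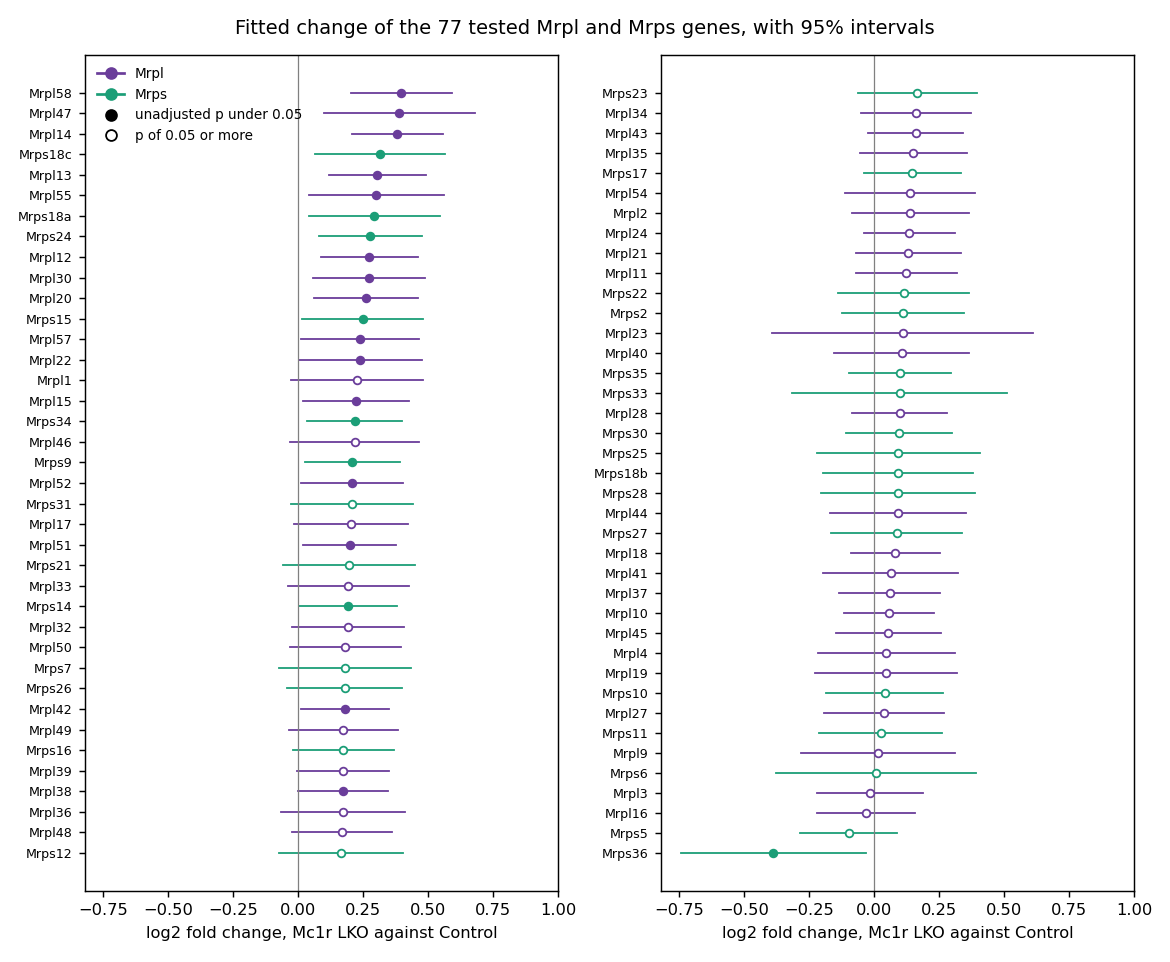
Log2 fold change (Mc1r LKO against Control) of the 77 tested members, ordered by size, with 95% intervals from edgeR's quasi-likelihood fit. Points lie to the right of 0 for 73 genes, and 23 filled points mark an unadjusted p below 0.05, of which Mrps36, the last gene of the right panel and left of 0, is the lower one.

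The single genes overlapped between genotypes in most cases. Genotypes were separate for 16 higher members, 12 Mrpl and 4 Mrps, and for 1 lower one, Mrps36, while 4.16% of all genes were separate in either direction (2.63% higher and 1.54% lower). The 16 were Mrpl12, Mrpl13, Mrpl14, Mrpl17, Mrpl20, Mrpl22, Mrpl38, Mrpl39, Mrpl42, Mrpl47, Mrpl52, Mrpl58, Mrps9, Mrps14, Mrps24 and Mrps34. The highest value of the 8 mice fell in an Mc1r LKO mouse for 62 of the 77 genes and the lowest in a Control mouse for 70. Mouse 182 held the highest value of 24 genes, and Control mouse 159 held the highest of 10, more than the other Control mice (0 to 3). Control mouse 159, with the fewest counts of all mice, also held the lowest value of 19 genes, beside 16 to 18 in the other Control mice.

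Mrpl14, a protein of the large subunit at the face that meets the small subunit, had the smallest p-value among the members. Its level was 40.0, 40.1, 40.8 and 37.6 CPM in Control and 53.1, 54.3, 47.3 and 51.8 CPM in Mc1r LKO mice. All Mc1r LKO mice were above all Control mice. The log2 fold change was 0.38 with SE 0.08, a 1.30-fold difference (unadjusted p = 0.00063 and adjusted p = 0.73, edgeR's quasi-likelihood test).

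Mrpl58, a peptidyl-tRNA hydrolase built into the large subunit that frees peptides from stalled ribosomes, had the largest positive fold change. It measured 24.8, 27.0, 23.3 and 23.7 CPM in Control and 35.5, 30.8, 32.1 and 31.5 CPM in Mc1r LKO mice, without overlap. The log2 fold change was 0.40 with SE 0.09 (unadjusted p = 0.00101, edgeR's quasi-likelihood test).

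Mrpl47 lies close to the tunnel through which new peptides leave. It measured 8.83, 9.02, 10.2 and 9.25 CPM in Control and 11.3, 11.4, 11.4 and 14.8 CPM in Mc1r LKO mice, with mouse 182 standing above the rest. The log2 fold change was 0.39 with SE 0.13 (unadjusted p = 0.0136, edgeR's quasi-likelihood test), and without mouse 182 it was 0.27 (unadjusted p = 0.0626).

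Among the other large subunit genes past both limits, Mrpl12 and Mrpl13 were separate between genotypes. Mrpl12 measured 120.9, 112, 103 and 104 CPM in Control and 138, 136, 130.4 and 128 CPM in Mc1r LKO mice, for a fitted log2 fold change of 0.27 with SE 0.08. Mrpl13, a protein of the core of the subunit, had means of 31.1 ± 1.85 and 38.5 ± 2.43 CPM (SD, n = 4 each), a log2 fold change of 0.31 with SE 0.08. Mrpl20 was separate too, at 0.26 with SE 0.09. Mrpl30 (0.27) and Mrpl55 (0.30) passed both limits with overlap, since Control mouse 159 reached 56.9 CPM of Mrpl30 and 20.1 CPM of Mrpl55, above the lowest Mc1r LKO mice at 56.5 and 19.9. With mice left out, the unadjusted p reached 0.0532 for Mrpl30 and 0.08 for Mrpl55 (edgeR's quasi-likelihood test).

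**Figure D2:**
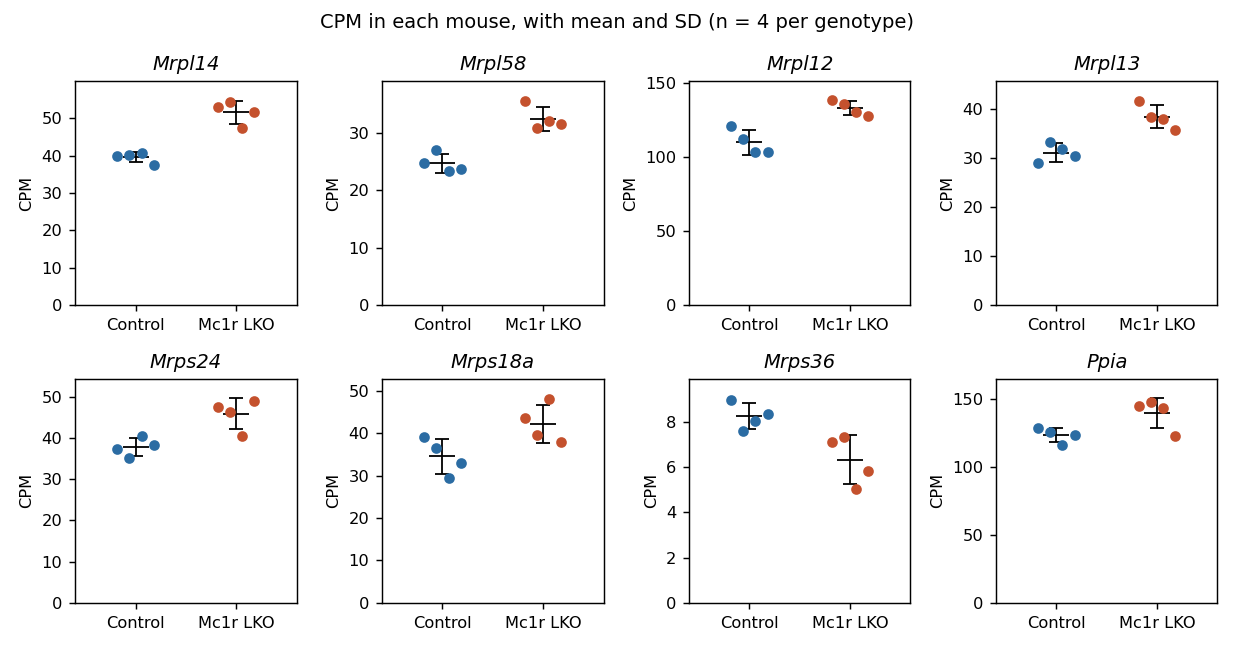
CPM of 7 members and of Ppia in each mouse (points), with mean and SD (bars, n = 4 per genotype) and axes that start at 0. Mrpl14, Mrpl58, Mrpl12, Mrpl13, Mrps24 and Mrps36 are separate between genotypes, while Mrps18a and Ppia overlap.

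The mammalian mitoribosome has several versions of the bacterial protein S18. Mrps18a sits in the large subunit despite its symbol, and Mrps18b and Mrps18c sit in the small subunit. Mrps18c had a log2 fold change of 0.32 with SE 0.11 (unadjusted p = 0.0179, edgeR's quasi-likelihood test) and means of 15.3 ± 1.24 CPM in Control and 19.1 ± 2.21 CPM in Mc1r LKO mice (SD, n = 4 each), with mouse 182 at 16.7 beside Control mouse 181 at 16.8. Of its exonic bases 23.2% are shared with Gm43511. Mrps18b measured 29.03, 19.3, 26.1 and 22.8 CPM in Control and 22.7, 26.6, 26.6 and 27.9 CPM in Mc1r LKO mice, and its log2 fold change was 0.09 with an interval from -0.20 to 0.38. The intervals of the 3 genes overlap, and their differences were not tested.

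Mrps18a measured 39.1, 36.5, 29.5 and 32.9 CPM in Control and 43.5, 39.6, 47.99 and 37.9 CPM in Mc1r LKO mice. Mouse 182 lay below Control mouse 154, so the genotypes overlapped. The log2 fold change was 0.29 with SE 0.11 (unadjusted p = 0.0267, adjusted p = 0.73, edgeR's quasi-likelihood test), past both limits with p unadjusted, but the p-value was above 0.05 when Control mouse 181 or 193 or Mc1r LKO mouse 157 was left out.

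Mrps18a and Ppia, the gene of cyclophilin A, are the pair of reference genes to which the study's mouse qPCR values are scaled. On the log2 CPM scale, Mrps18a averaged 5.11 ± 0.18 in Control and 5.40 ± 0.15 in Mc1r LKO mice (SD, n = 4 each), a difference of 0.29 (exact permutation test, two-sided, p = 0.0571). With 4 mice in each genotype this exact test cannot go below p = 0.0286. Ppia averaged 6.95 ± 0.06 and 7.13 ± 0.12, a difference of 0.17 (exact permutation p = 0.114, n = 4 each). The mean of both, which corresponds to a geometric mean of the levels, was 6.03 ± 0.12 and 6.26 ± 0.12, a difference of 0.23 (exact permutation p = 0.0571, n = 4 each). Neither gene nor their mean passed 0.05, which in this test only fully separate genotypes can do. Both genes and their mean overlapped between genotypes, so the test cannot decide whether they differ. In edgeR's quasi-likelihood test the unadjusted p was 0.0267 for Mrps18a and 0.0694 for Ppia.

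Mrpl14 and Mrps18a both lie on chromosome 17, with starts 425 kilobases apart in GRCm38. Chromosome 17 holds 8 members in all and chromosome 11 holds 11, the most of any chromosome. The Mrpl14 gene spans chr17:45686322-45698495 and Mrps18a chr17:46110986-46128910, both on the plus strand, in the annotation of the count tables, which places both starts slightly before those of RefSeq.

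Small subunit genes gave counts and medians close to those of the large subunit. Of 29 Mrps genes 27 were higher, with a median log2 fold change of 0.15, 7 higher and 1 lower at an unadjusted p below 0.05. Of 48 tested Mrpl genes 46 were higher, with a median of 0.17 and 15 higher and 0 lower at that p. The Mrpl median minus the Mrps median was 0.03, and it was -0.0043 without Mc1r LKO mouse 141, -0.0030 without Control mouse 154 and 0.0714 without mice 159 and 182 together, so the direction of this difference rests on single mice. Sorted by the place of the protein in the particle, 48 of 50 large subunit genes were higher with a median of 0.17, and 25 of 26 small subunit genes with a median of 0.16. The protein Mrps30, which also sits in the large subunit, had a log2 fold change of 0.10 with an interval from -0.11 to 0.30.

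Within each mouse, the mean log2 CPM of the Mrpl genes was 4.84 to 4.94 in Control and 5.03 to 5.07 in Mc1r LKO livers. That of the Mrps genes was 4.49 to 4.59 and 4.64 to 4.70. Both were separate between genotypes, and Control mouse 159 was the highest Control in each. The difference of the means, Mrpl minus Mrps, was 0.34 ± 0.02 in Control and 0.38 ± 0.02 in Mc1r LKO mice (SD, n = 4 each), and mouse 182 at 0.35 fell among the Control values of 0.32 to 0.35. As a share of all counts the members took 0.228% to 0.242% in Control and 0.242% to 0.271% in Mc1r LKO livers. On this unscaled share mouse 182 (0.242%) lay within the Control range, and its TMM factor was the lowest of the 8 mice, 0.911 against 0.970 to 1.06 in the others.

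**Figure D3:**
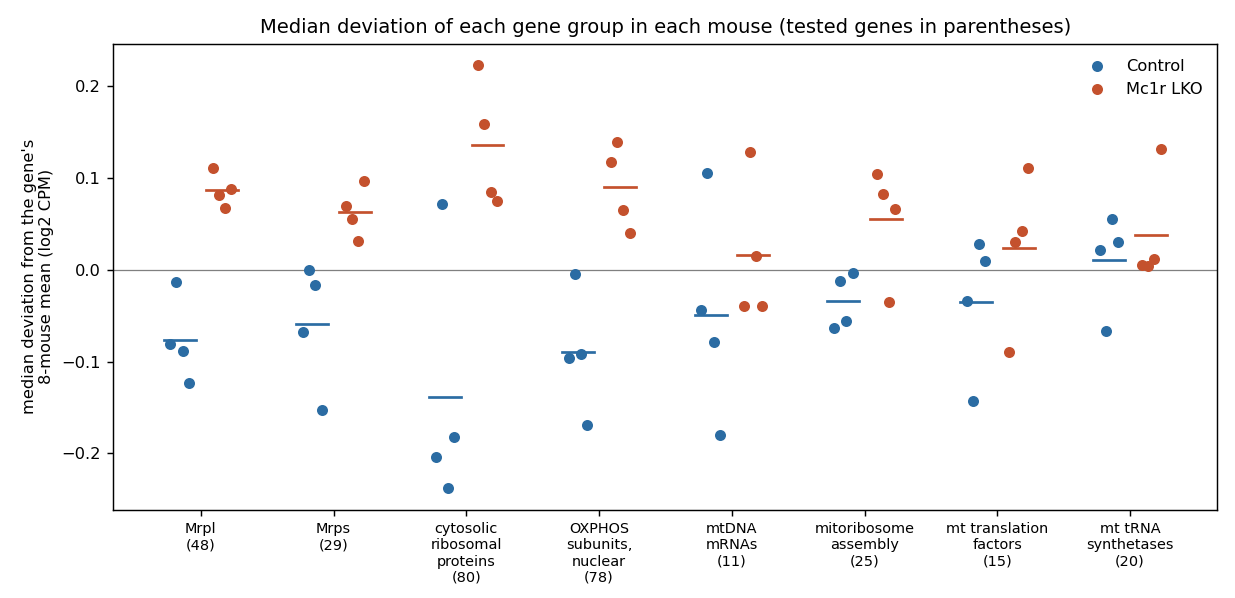
Median deviation of each gene group from its genes' 8-mouse means, in log2 CPM, per mouse (points) with the mean of each genotype (lines). Mrpl, Mrps, cytosolic ribosomal protein and nuclear oxidative phosphorylation (OXPHOS) genes of the 4 Mc1r LKO mice lie above those of the 4 Control mice. For cytosolic ribosomal proteins Control mouse 159 (0.072) nearly meets Mc1r LKO mouse 182 (0.076). Assembly factors, translation factors, tRNA synthetases and mitochondrial mRNAs overlap.

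Mitoribosomal proteins are either shared with bacteria or found in mitochondria alone. The classes were assigned from general knowledge. Mrps18a and Mrps18b, though versions of S18, were placed in the mitochondrial class, and Mrps18c in the shared class. Of 46 tested members classed as shared 43 were higher, median log2 fold change 0.16. Of 30 classed as mitochondrial alone all 30 were higher, median 0.17. In the small subunit the medians were 0.17 for 16 shared and 0.11 for 10 mitochondrial proteins, and in the large subunit 0.16 for 30 and 0.17 for 20.

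In the small subunit, Mrps24, a counterpart of bacterial S3 near the entry of the mRNA channel, had a log2 fold change of 0.28 with SE 0.09 (unadjusted p = 0.0103, edgeR's quasi-likelihood test). It measured 37.3, 35.0, 40.4 and 38.3 CPM in Control and 47.6, 46.3, 40.6 and 49.0 CPM in Mc1r LKO mice. Mouse 157 was just above the highest Control mouse. Mrps34 (0.22), Mrps9 (0.21) and Mrps14 (0.19) were separate between genotypes but below the fold limit. Of Mrps24, 15.4% of exonic bases are shared with Urgcp, whose own log2 fold change was -0.01.

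Only 4 members were lower in Mc1r LKO livers. Mrps36 measured 8.99, 7.62, 8.02 and 8.36 CPM in Control and 7.12, 7.34, 5.05 and 5.83 CPM in Mc1r LKO mice, without overlap. Its log2 fold change was -0.39 with SE 0.16 (unadjusted p = 0.0356, adjusted p = 0.73, edgeR's quasi-likelihood test). Although named as a ribosomal protein, its product is known as a component of the 2-oxoglutarate dehydrogenase complex of the citric acid cycle. The p-value was above 0.05 in 6 of the 9 fits with mice left out, namely without Control mouse 154, 181 or 193, without Mc1r LKO mouse 157 or 182, and without mice 159 and 182 together. The mouse genome annotation also holds 3 pseudogenes named after Mrps36, with 0 to 3 counts in every mouse, and reads that match several of these copies were not counted. The others were Mrps5 at -0.10, Mrpl16 at -0.03 and Mrpl3 at -0.02, none with a p below 0.05.

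Among members, the 5 most abundant per kilobase ran from 0.14 to 0.38 in log2 fold change and the 5 least abundant tested ones from -0.02 to 0.39.

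**Figure D4:**
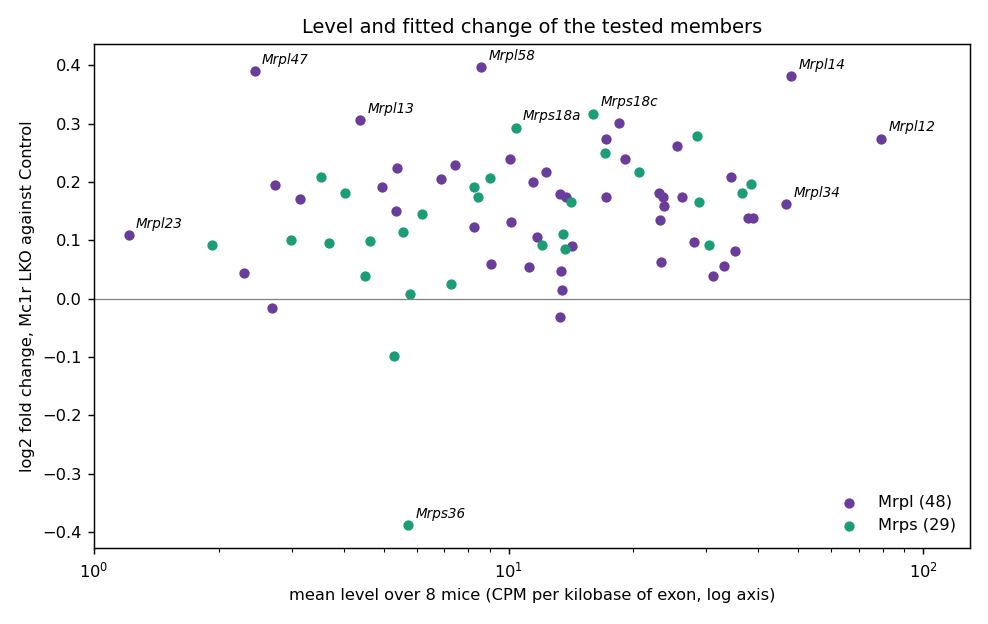
Log2 fold change against mean level over 8 mice (CPM per kilobase of exon, log axis) for 48 Mrpl and 29 Mrps genes. Points above 0 occur at every level, from Mrpl23 at 1.21 to Mrpl12 at 79.3, and Mrps36 is the point far below the rest.

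Across all tested genes, fold change did move with length and level. Members are short and abundant, with 40 of 77 in the lowest length quartile and 46 in the highest quartile of level per kilobase. In the lowest length quartile 64.0% of the other genes were higher (median 0.09), against 31.8% in the highest (median -0.07). Among genes in both the lowest length and the highest level quartile, 78.7% of 1328 others were higher, with a median log2 fold change of 0.12, and all 36 members there were higher, with a median of 0.17. In the highest length quartile, 8 of 9 members were higher with a median of 0.17. The part of length and level in the members' values was not tested.

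Other nuclear gene groups, namely cytosolic ribosomal proteins and groups that work with the mitoribosome, gave differing counts. Cytosolic ribosomal protein genes, which encode the ribosome of the cytosol, were higher in 79 of 80 with a median log2 fold change of 0.27, and 65 were higher and 0 lower at an unadjusted p below 0.05. Nuclear subunits of oxidative phosphorylation, which join with the products of the mitoribosome, were higher in 76 of 78 with a median of 0.18, and 28 were higher and 0 lower. Mitoribosomal proteins with other symbols (Dap3, Chchd1, Aurkaip1, Ptcd3 and Gadd45gip1) were higher in 5 of 5 with a median of 0.09, and Aurkaip1 at 0.23 was the one with a p below 0.05 (unadjusted p = 0.0161, edgeR's quasi-likelihood test).

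Assembly and rRNA modification factors, which build and mature the particle, were higher in 18 of 25 with a median of 0.11, and 0 passed a p of 0.05. Translation factors were higher in 10 of 15 with a median of 0.04 and 0 past p, and the elongation factor Tufm measured -0.03. Mitochondrial aminoacyl-tRNA synthetases, which charge the tRNAs, were higher in 11 of 20 with a median of 0.02, and 1, Rars2 at 0.38, passed. Genes of mitochondrial DNA transcription and maintenance were higher in 4 of 8 with a median of 0.01, and 1, Tfb2m at 0.27, passed. Differences between these groups and the members were not tested.

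The mRNAs that the mitoribosome translates were higher in 8 of 11 tested, with a median log2 fold change of 0.15, and took 6.23% to 6.94% of counts in Control and 6.20% to 6.82% in Mc1r LKO livers. mt-Nd5, a complex I subunit, was lower at -0.24 (unadjusted p = 0.0374, edgeR's quasi-likelihood test) and was the one past a p of 0.05. mt-Nd1 was at 0.00 and mt-Co1 at -0.05. Few reads were counted for mt-Co2, mt-Co3 and mt-Atp6, at 1.17, 1.12 and 0.926 CPM in Control beside 8211 CPM for mt-Nd1. These 3 carry little information, and mt-Nd3 was also low at 2.46 CPM. Reads that map to several places were not counted, so these values, and the shares of counts above, may understate the mRNAs. Whether such reads were lost here was not tested. Over the 7 mRNAs at 10 CPM or more in Control, a level chosen after the values were seen, 4 were higher and the median log2 fold change was 0.0036. The rRNAs of the mitoribosome, mt-Rnr1 and mt-Rnr2, were at 0.25 and 0.11, neither past a p of 0.05, in libraries selected for polyadenylated RNA.

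Regulators linked to mitochondrial genes were mixed. Of 11 listed, 6 were higher, the median log2 fold change was 0.01, and 1, Gabpb2, was lower past a p of 0.05 (-0.30, unadjusted p = 0.0208, edgeR's quasi-likelihood test). Nrf1, the gene of NRF-1, measured 0.26 with SE 0.17, Gabpa 0.01, Yy1 0.02 and the coactivator Ppargc1a 0.13 with SE 0.26. Myc, which drives ribosome production in growing cells, measured -1.25 with SE 0.66, the widest error of the group. Its level was 31.5 CPM in Control mouse 159 and 2.97 to 6.54 CPM in the other 7 mice, and without mouse 159 the log2 fold change was 0.0093 with SE 0.30. None of the 5 genes Nrf1, Gabpa, Yy1, Ppargc1a and Myc passed a p of 0.05.

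Many members share a start region with a gene on the other strand. A tested head-to-head neighbour whose start lay within 1000 bases, without overlap of the genes, was found for 19 of 77 members (24.7%), against 10.1% of all tested genes. Of the 19 neighbours 9 were higher, and 2 had an unadjusted p below 0.05, both higher (Fau at 0.35, beside Mrpl49, and Psma2 at 0.21, beside Mrpl32). Fau encodes a cytosolic ribosomal protein and Psma2 a proteasome subunit. Among members past both limits, Mrps18c lies 29 bases from Helq (0.28), Mrpl30 lies 66 bases from Mitd1 (0.04) and Mrpl55 lies 101 bases from 2610507I01Rik (-0.15). With pairs whose starts overlap by up to 1000 bases included, a definition added after the values were seen, the count was 31 of 77 members (40.3%), against 16.9% of all tested genes. These pairs include Mrpl14 with Tmem63b (0.02), Mrpl13 with Mtbp (-0.16), Mrpl47 with Ndufb5 (0.19, unadjusted p = 0.0354, edgeR's quasi-likelihood test) and a pair of members, Mrpl46 (0.22) with Mrps11 (0.02). Of the 29 neighbours that are not members 14 were higher, and 3 had an unadjusted p below 0.05, all higher.

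The tissue was bulk liver, in which fewer cells of a type and less RNA per cell cannot be told apart. Hepatocyte markers were higher in Mc1r LKO livers for 7 of 8 genes (median log2 fold change 0.16, 1 past p). Kupffer and macrophage markers were lower for 8 of 8 (median -0.44, 1 past p), and their sum ran from 275 to 657 CPM in Control and from 189.7 to 403 CPM in Mc1r LKO mice. Mouse 182, with the highest value of 24 members, had the lowest Kupffer sum and the highest hepatocyte sum. Control mouse 159 had the highest Kupffer sum and the highest hepatocyte sum of the Control mice. The hepatocyte sum was mostly Alb, at 74793 of 104920 CPM in mouse 182 and 64693 of 90341 CPM in mouse 159. Endothelial markers were higher in 2 of 6, stellate cell markers in 2 of 6, cholangiocyte markers in 4 of 4 tested, lymphocyte and neutrophil markers in 2 of 2 tested and erythroid markers in 5 of 5, with 0 past p in each. No marker was at 0 in every mouse. Without mice 159 and 182, chosen after the data were seen, 71 of 77 members were higher with a median log2 fold change of 0.18, and 20 passed both limits, against 8.86% of all genes. The part of cell type makeup in the members' values was not tested.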

How the data were processed

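RNA was sequenced from Western diet-fed livers (n = 4 Control and n = 4 Mc1r LKO mice, stranded poly(A) libraries). The authors trimmed reads with Trim Galore 0.6.6, aligned them with STAR 2.7.6a and deposited raw counts per gene from featureCounts (Subread 2.0.1), per the file headers paired and reverse-stranded on the Ensembl release 102 annotation of GRCm38. Reads that map to several places or to exons of several genes on a strand were not counted, which lowers members with overlaps or pseudogenes. Depth was 10773151 to 24763375 counts, and counting error is smallest for the deepest mice.

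From the counts, edgeR 4.0.16 (filterByExpr with a minimum count of 10, TMM, glmQLFit and glmQLFTest) compared genotypes over 13400 genes, with Benjamini-Hochberg adjustment over all of them. CPM was TMM-scaled, and log2 CPM used a prior count of 2. Intervals are 95%. Replicates are separate mice grouped by sample title. Symbols were matched for 55141 of 55487 identifiers. Exact permutation tests used scipy 1.17.1. Promoter windows are RefSeq, GRCm38.p6, and figures used matplotlib 3.10.9. The fit was tested on simulated data. Alternatives used DESeq2 1.42.0, limma 3.58.1 and sva 3.50.0, other scalings and filters, and leaving out each mouse.

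The members, lists and motifs were chosen with earlier results of these data known. Genes named are Mrpl14, Mrps18a and the related Mrps18b, Mrps18c and Mrps30, members past both limits, members with separate genotypes, the 5 largest fold changes each way, the 5 most and 5 least abundant per kilobase, and members untested or with overlapping exons.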

Additional observations from a re-analysis of the deposited data

Results flagged for a closer look

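Among 35 named members in both genotypes, 70 groups of 4 mice were checked for 1 mouse far from the other 3 (Dixon's 95% limit), and 6 were found, where chance gives about 1 in 20. Mrpl16 in Mc1r LKO mouse 141 was at 36.8 CPM, with the other mice of its genotype at 42.9 to 43.3. Mrpl30 in Mc1r LKO mouse 182 was at 56.5 CPM, with the others at 61.9 to 62.3. Mrpl47 in the same mouse was at 14.8 CPM, with the others at 11.3 to 11.4. Mrpl3 in Control mouse 159 was at 16.3 CPM, with the others at 18.5 to 18.7. Mrps30 in Control mouse 181 was at 26.6 CPM, with the others at 22.6 to 23.1. Mrps21 in Control mouse 159 was at 32.8 CPM, with the others at 23.9 to 25.3.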

How the results depend on the processing

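Across 19 alternative fits, 67 to 74 members were higher in Mc1r LKO livers, and Mrpl14, Mrpl13 and Mrpl58 stayed on their side of both limits in each. Of the other members past both limits, Mrps36 fell short of a limit in 6 of these fits, and Mrps18a and Mrpl55 in 4. Mrpl20, Mrpl30 and Mrps24 did so in 3, Mrpl12 in 2, and Mrpl47 and Mrps18c in 1. DESeq2 called 1 member at an adjusted p below 0.05 (Mrpl14, adjusted p = 0.0219, and 0.0219 to 0.985 over its alternatives), beside 17 of the 8458 genes it gave an adjusted p (0.201%). Members past both limits numbered 6 with scaling by library size alone and 23 without the fold limit. Scaling by library size alone also gave medians of 0.13 for Mrpl and 0.10 for Mrps genes and 0.25 for Mrps18a (unadjusted p = 0.0854, edgeR's quasi-likelihood test), and moved the median of all genes from -0.01 to -0.06.

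Leaving out mice gave 7 (without Control 193) to 20 (without Control 159, and without Control 159 and Mc1r LKO 182 together) members past both limits. It gave a difference of medians, Mrpl minus Mrps, of -0.0043 (without Mc1r LKO 141) to 0.0714 (without both 159 and 182), and -0.0030 without Control 154. Mrps18a ranged from 0.23 to 0.38, with p above 0.05 at 0.23 without Control 181, 0.28 without Control 193 and 0.23 without Mc1r LKO 157. Mrps36 ranged from -0.47 to -0.28 and missed p of 0.05 in 6 of 9 such fits. Of genes near 0, Mrps6 (0.01 in the report) was at -0.0002 with upper quartile scaling, -0.0426 with library size alone and as low as -0.1234 without a mouse, and Mrpl19 (0.04) was at -0.0038 with library size alone and -0.0084 without Mc1r LKO 182. With mice left out, sign also turned in Mrpl3 (-0.0767 to 0.0201), Mrpl16 (-0.0575 to 0.0288), Mrps18b (-0.0288 to 0.1931), Mrpl23 (-0.0383 to 0.3563) and Mrps25 (-0.0204 to 0.1562), none past p of 0.05. Myc, not a member, turned from -1.25 to 0.0093 without Control 159. The cause was not tested. No paired analysis was made, because the sample titles give a number for each mouse but no litter or cage. Members had a median SE of 0.10, which sets the size of difference that 4 mice against 4 can resolve.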
